A study of Mus musculus with 16 samples.

Results

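The protein components of the cytosolic ribosome were followed in mouse spinal cord, as the genes whose probe sets carry a single platform symbol of the form Rpl or Rps with a number, or Rplp0 to Rplp2. The ribosomal S6 kinases, whose symbols begin with Rps6k, were left out. The rule found 34 genes, 17 of the large and 17 of the small subunit, on 48 probe sets, out of 8251 genes with a single symbol on the array. The rule uses symbols and no measured value, but it was chosen with earlier results of these data known.

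RNA from spinal cord was hybridised to 16 single-colour arrays carrying 12488 probe sets. The spastic strain is known for a recessive defect in Glrb, which encodes the glycine receptor's beta subunit, and for stiffness and tremor. The spastic group had 5 samples on 6 arrays: 2 females of 2 months (Spa1 and Spa2), a sample titled male and sev at 3 months, a sample titled male at 3+ months, taken as a lower bound of 3, and a female of 6 months titled M. The words sev and M are given as titled and were not interpreted. B6C3Fe, a hybrid mouse stock, was represented by 1 sample of a 1-month male on 2 arrays. The control group had 4 samples on 8 arrays, a female and a male at each of 9 and 12 months. The titles give no strain or genotype for the controls, and no pool size or animal number for any sample, so p-values measure only the spread between these samples, which may be technical. Spastic mice were 2 to 6 months old and controls 9 to 12 months, so age and genotype cannot be told apart in that comparison.

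The ribosome reads messenger RNA and joins amino acids into protein. Its small subunit decodes the message, its large subunit forms the peptide bond, and each subunit is built in the nucleolus from ribosomal RNA and roughly equal amounts of its proteins. Many of these genes share a core promoter whose transcripts start in a short stretch of C and T bases, which lets nutrient and growth signals set their translation. In the nervous system, ribosomes lie in the cell body, in dendrites and, in smaller number, in axons. Ribosomal protein genes also have many processed pseudogenes and near copies, so a probe set can detect several of them.

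Promoter windows of the RefSeq annotation of GRCm38.p6 were available for 27 of the 34 genes. The lines below show 70 bases before and 30 bases from the annotated transcript start, 5′ to 3′ on the strand of the gene, from the first window where a gene has several. Rps18 is shown because it was the member called at the smallest p between spastic and control cord, Rpl41, Rps28 and Rps24 because they varied most between samples of a group, and Rplp0 and Rps4x as members that differed little. Capitals mark the letters CTTCCG, or CGGAAG where they lie on the other strand, which are the core of sites bound by ETS-type factors.
Rps18, chr17:33955636-33955735, reverse strand: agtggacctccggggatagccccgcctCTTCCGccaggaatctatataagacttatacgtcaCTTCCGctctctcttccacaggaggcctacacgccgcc
Rpl41, chr10:128549139-128549238, reverse strand: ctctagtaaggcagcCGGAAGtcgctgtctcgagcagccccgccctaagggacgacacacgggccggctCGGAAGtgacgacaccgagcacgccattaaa
Rps28, chr17:33824533-33824632, reverse strand: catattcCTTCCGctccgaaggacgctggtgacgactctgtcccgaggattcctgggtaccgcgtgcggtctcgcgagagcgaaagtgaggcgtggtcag
Rps24, chr14:24490608-24490707, forward strand: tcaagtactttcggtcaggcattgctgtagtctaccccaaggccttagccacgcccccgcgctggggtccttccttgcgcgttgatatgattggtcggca
Rplp0, chr5:115559397-115559496, forward strand: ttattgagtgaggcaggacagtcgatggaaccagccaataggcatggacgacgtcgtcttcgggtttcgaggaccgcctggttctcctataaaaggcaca
Rps4x, chrX:102189362-102189461, reverse strand: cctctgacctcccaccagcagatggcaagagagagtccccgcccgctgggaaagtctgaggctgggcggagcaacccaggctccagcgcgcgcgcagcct
Over the whole window of 250 bases before and 50 after the start, CTTCCG on either strand was found in 18 of 27 members (66.7%), against 18.8% of all 27025 genes with a window. A run of at least 6 C or T bases on the strand of the gene, reaching to within 10 bases of the start, was found in 15 of 27 members (55.6%), against 32.7% of all genes. The letters TATAAA, searched on both strands, were in 4 members (14.8%) and in 15.7% of all genes. A gene counted if any of its windows matched, and some genes had several. Counted per window, the shares for members and all genes were 52.8% and 16.9% for CTTCCG. They were 41.7% and 29.2% for the run, and 11.1% and 13.6% for TATAAA. Rps18 held CTTCCG 4 times, Rpl41 2 times and Rps28 1 time, while Rps24, Rplp0 and Rps4x had none in these letters. The match counts describe letters in a window, and the deposited data hold no binding measurement.

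Several measures of the libraries bear on the values below. In the check of the mutated gene, Glrb was at 9.92 to 11.11 on the log2 scale on spastic arrays, at 12.92 to 12.98 on B6C3Fe arrays and at 12.7 to 13.3 on control arrays (spastic minus control -2.44, limma adjusted p = 0.000311). Both spastic samples titled male carried the female pattern of sex-linked genes, with Xist at 10.37 to 11.45 on all spastic arrays and the Y-linked Eif2s3y at the floor of 5.93, so results are also given without them. The ratio of 3-prime to 5-prime probe sets for Pcx, an endogenous RNA used as a quality control, was higher in spastic samples, 2.38 ± 0.38 on the log2 scale (SD, n = 5), than in control samples, 1.73 ± 0.22 (SD, n = 4; exact permutation p = 0.0238, two-sided). The B6C3Fe sample had 1.78. The same ratio for Gapdh, not on the log2 scale, was 0.628 to 0.932 on spastic arrays and 0.641 to 1.99 on control arrays. For actin it was 0.679 to 1.64 and 0.734 to 2.4, so these ratios were not higher in spastic cord. The B6C3Fe arrays had Gapdh ratios of 0.892 and 0.711, and actin ratios of 0.102 and 0.433, below those of all other arrays. The highest Gapdh and actin ratios were both on array a of the 9-month female control. The 2 arrays of the 6-month spastic sample reached intensities of 62775 and 63072, while the other 14 arrays reached 16667 to 30445. Endothelial and mural markers were higher in spastic cord, 9 of 11 called (81.8%, against 19.8% of all genes). Their summed log2 level was 102.1 to 104.8 in spastic samples, 92.2 in B6C3Fe and 91.6 to 93.8 in control samples. None of the 11 was at the floor in every sample. Other lists held calls too, with 4 of 10 microglial markers lower. Of 8 oligodendrocyte markers 1 was higher and 2 lower, with a summed level of 93 to 96.7 in spastic and 97.7 to 99.9 in control samples. Of 13 neuronal markers 2 were higher and 3 lower, and of 10 astrocyte markers 1 was higher and 2 lower. Prl, a pituitary hormone gene, ranged from 5.93 to 13.06 over spastic arrays. The part of these measures in the results below was not tested unless a value is given. In whole cord, fewer cells of a type and less RNA per cell cannot be told apart.

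Values are log2 of the deposited intensity, with every value under the floor of 60.9 set to it (5.93 on the log2 scale). Probe sets averaging more than 7.62 over the arrays were kept for testing, and the brightest of them stood for its gene. Of the 48 probe sets 29 passed, and 24 of the 34 genes were tested, 12 of each subunit. The 10 genes not tested were Rpl32, Rpl35a, Rpl38, Rpl39, Rpl39l, Rps13, Rps14, Rps15, Rps20 and Rps27l, whose probe sets had means of 5.94 to 7.57, and Rps27l was at the floor on 13 of 16 arrays. Since dim signal also reflects the probes, this is not a measure of how much of each gene was made. Rplp1, Rplp2, Rps6, Rpl3, Rpl3l and Rpl22l1 had no probe set with a single symbol here. The probe sets tested for Rps24, Rps28 and Rps3a1 were the brightest, with means of 14.28, 13.94 and 13.85 over the arrays. Those for Rpl7l1, Rps29 and Rps4l were the dimmest, with 7.87, 8.82 and 9.82. Brightness depends on the probes as well as on the RNA, so it does not order the genes by level.

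**Figure D1:**
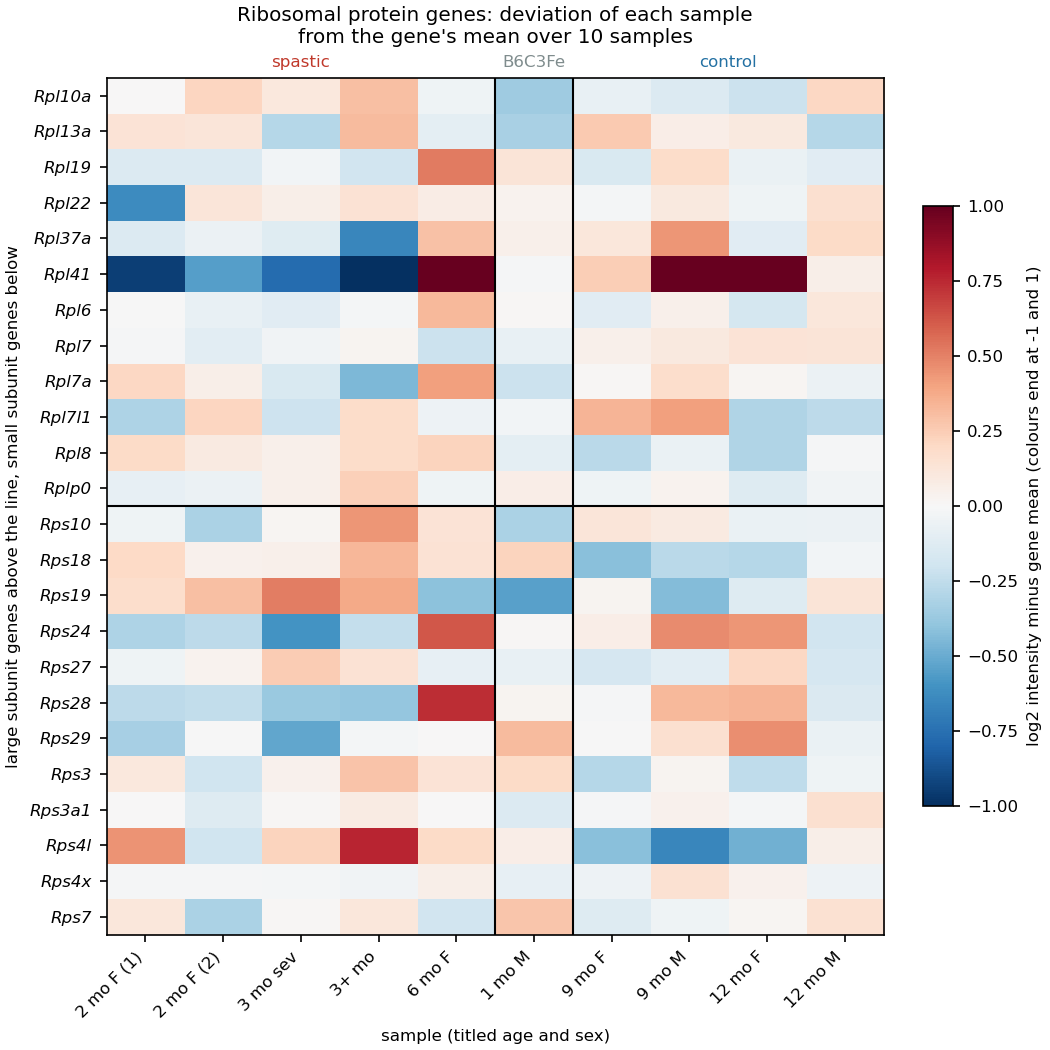
The log2 intensity of each of the 24 tested genes in each of the 10 samples, minus that gene's mean over the samples, with spastic, B6C3Fe and control samples from left to right and large subunit genes above small subunit genes. Most cells lie near 0, while Rpl41, Rps24 and Rps28 were high in the 6-month spastic sample and low in the other 4 spastic samples.

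Between spastic and control cord, 2 of 24 ribosomal protein genes rose and 0 fell, in limma's test with titled sex in the model and Benjamini-Hochberg adjustment over the 6427 genes tested. That was 8.33% of the members, against 19.8% of all genes (9.83% higher and 9.93% lower). The median difference of the members was -0.02 on the log2 scale, as it was over all genes, with 11 members above 0 and 13 below; setting the median of every array equal moved both medians to 0.15. Differences ran from -1.29 to 0.68, with a median size of 0.14 for members against 0.24 for all genes. For 22 of 24 members the 95% interval of the difference lay within 1 log2 unit on either side of 0, and for 86% of all genes.

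Rps18, a protein of the small subunit head, was higher in spastic cord. Its arrays read 13.67 and 13.65 in the 6-month sample, 13.72 in Spa1, 13.56 in Spa2, 13.57 in the sev sample and 13.85 in the 3+ month sample, against 13.23 and 13.22 in the 12-month female, 13.48 and 13.5 in the 12-month male, 13.31 and 12.89 in the 9-month female and 13.24 and 13.26 in the 9-month male controls. All 5 spastic samples lay above all 4 control samples. Spastic samples averaged 13.67 ± 0.12 (SD, n = 5) and control samples 13.27 ± 0.16 (SD, n = 4), and the fitted difference was 0.41 (SE 0.11, 1.33-fold, adjusted p = 0.0239). The B6C3Fe arrays read 13.7 and 13.77, within the range of the spastic samples. Without the 2 spastic samples titled male the difference was 0.48 (adjusted p = 0.101), and adding the Pcx ratio to the model gave 0.32 (adjusted p = 0.35). With the B6C3Fe sample counted among the controls it was 0.35 (adjusted p = 0.0733), and with log2 of age added 0.23 (adjusted p = 0.261). The call also ended without the 12-month female (0.43, adjusted p = 0.0639), 9-month female (0.37, 0.0728) or 9-month male control (0.38, 0.0655), and without Spa1 (0.39, 0.0578) or the 3+ month spastic sample (0.38, 0.0682).

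Rps4l, a relative of the X-linked gene Rps4x, was also higher. Its probe set, which the array design marks as shared by similar sequences, read 10.09, 10.35, 9.7, 10.12 and 10.66 in the 6-month, Spa1, Spa2, sev and 3+ month spastic samples, against 9.42, 9.96, 9.48 and 9.25 in the 12-month female, 12-month male, 9-month female and 9-month male controls. Spa2 lay below the 12-month male control, so the groups overlapped, and the B6C3Fe sample, at 9.97, lay within the spastic range. The means were 10.18 ± 0.35 (SD, n = 5) in spastic and 9.53 ± 0.31 (SD, n = 4) in control samples, a difference of 0.68 (SE 0.18, 1.61-fold, adjusted p = 0.0244). The second Rps4l probe set, under the filter, averaged 7.18 in spastic and 7.56 in control samples, the opposite order. Rps4x itself differed by -0.03 (SE 0.1, adjusted p = 0.861). Without the 2 spastic samples titled male the difference of Rps4l was 0.6 (adjusted p = 0.173), and adding the Pcx ratio gave 0.26 (adjusted p = 0.605). It was 0.63 (adjusted p = 0.0318) with B6C3Fe counted among the controls, 0.56 (adjusted p = 0.108) with log2 of age added to that, and 0.68 (adjusted p = 0.0786) with no filter on dim probe sets. The call also ended without Spa1 (0.62, adjusted p = 0.0541) or the 3+ month spastic sample (0.57, 0.0684), and without the 12-month female (0.69, 0.065) or 9-month male control (0.54, 0.0661).

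**Figure D2:**
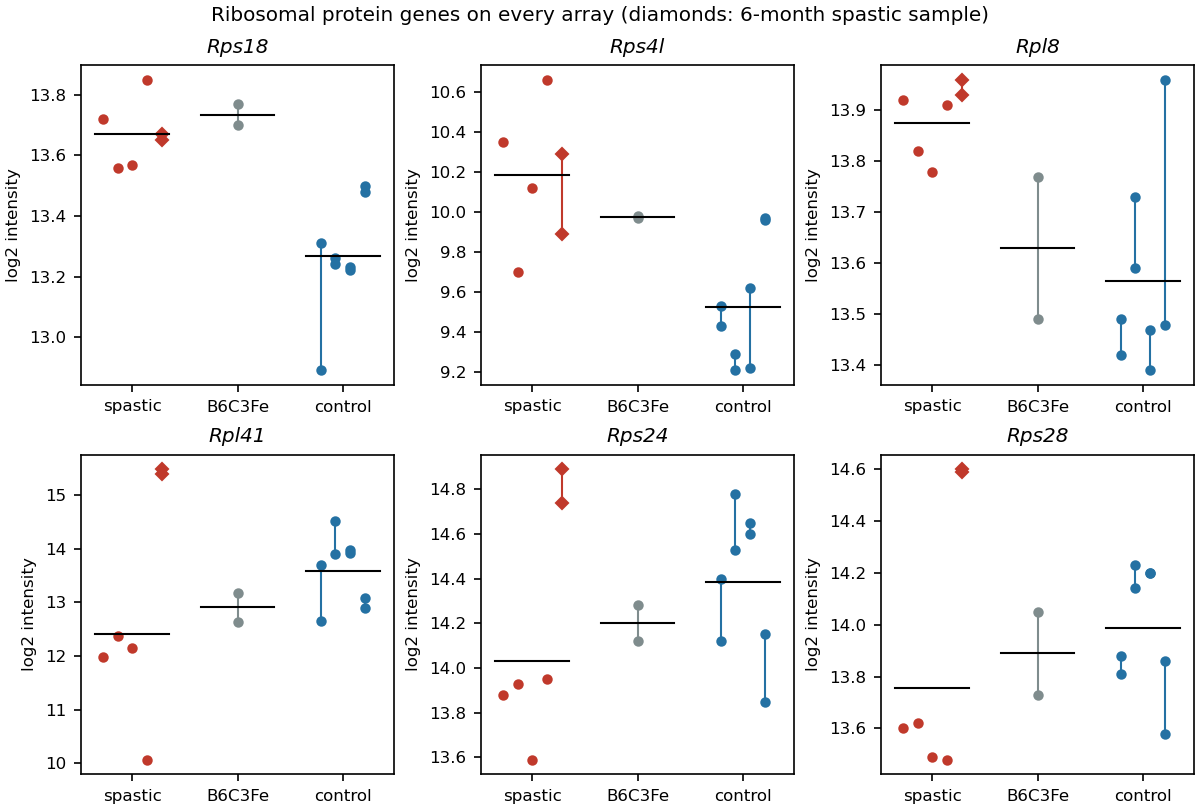
Log2 intensity on every array for 6 genes, with spastic, B6C3Fe and control samples from left to right, a line joining the 2 arrays of a sample, diamonds for the 6-month spastic sample and a bar at the mean of the samples. Rps18 and Rpl8 samples did not overlap between spastic and control, and the diamonds stand above the other spastic samples for Rpl41, Rps24 and Rps28.

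Rpl8, a large subunit protein near the peptide-bond-forming centre, missed the threshold. It was at 13.78 to 13.95 with a median of 13.91 in spastic samples, against 13.43, 13.46, 13.66 and 13.72 in the controls, and no control sample reached the lowest spastic one. One array of the 12-month male control read 13.96 and its other array 13.48. The difference was 0.32 (SE 0.11, adjusted p = 0.0571). Rpl8 was called in 6 of 29 alternatives, among them quantile normalization (0.54, adjusted p = 0.0254), equal array medians (0.49, adjusted p = 0.0346) and the sample as a random block (0.33, adjusted p = 0.0274). Over all members, spastic samples lay all above control samples for 2 genes (8.33%, against 9.3% of all genes) and all below for 1 gene (4.17%, against 10.2%). The gene below was Rpl7, a large subunit protein, at 13.41 to 13.65 in spastic and 13.67 to 13.76 in control samples, with a difference of -0.16 (adjusted p = 0.28).

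The other members of the standing list did not pass the test. Rplp0, the scaffold of the stalk that recruits elongation factors, differed by 0.08 (95% interval -0.13 to 0.29). Rpl13a, known in human cells for a role in silencing inflammatory transcripts outside the ribosome, differed by -0.01 (-0.33 to 0.3), and Rpl7l1, a relative of Rpl7, by -0.08 (-0.58 to 0.42). Rps3, a small subunit protein at the messenger entry, differed by 0.24 (adjusted p = 0.152). Among the lower estimates, Rps29 differed by -0.33 (adjusted p = 0.19) and Rpl37a by -0.3 (adjusted p = 0.249).

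Rpl41, a very short basic protein of the large subunit, spread more than any other member tested. It read 15.39 and 15.48 on the arrays of the 6-month spastic sample, 11.98 in Spa1, 12.37 in Spa2, 12.15 in the sev sample and 10.07 in the 3+ month sample. The B6C3Fe arrays read 12.64 and 13.18, and the controls 13.92 and 13.97, 13.07 and 12.89, 12.66 and 13.69, and 13.89 and 14.52 in the 12-month female, 12-month male, 9-month female and 9-month male. One spastic sample was above every control and the other 4 spastic samples were below every control sample mean. Its SD between samples of a group was 1.51, at the 99.9th percentile of all genes tested, and its probe set is one whose probes the design marks as common to a sequence family. The difference over all 5 spastic samples was -1.29 (95% interval -2.89 to 0.3, adjusted p = 0.235). It was -0.3 (adjusted p = 0.859) without the 2 spastic samples titled male, -0.71 (adjusted p = 0.528) without the 3+ month sample alone, -0.49 (adjusted p = 0.869) with the Pcx ratio added, -0.5 (adjusted p = 0.583) with the array letter as a replicate block and -1.94 (adjusted p = 0.016) without the 6-month sample.

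Rps24 and Rps28, small subunit proteins, had the next widest spread, with SDs of 0.4 and 0.39. Rps24 stood at 14.81 in the 6-month sample and 13.59 to 13.95 in the other 4 spastic samples, against 14, 14.26, 14.63 and 14.66 in the controls. Rps28 stood at 14.6 in the 6-month sample and 13.48 to 13.62 in the other 4, against 13.72 to 14.2 in the controls. In both genes the 6-month sample mean was above every control sample mean and the other spastic samples were below every control sample mean. Single arrays overlapped. For Rps24 a 6-month array read 14.74 and a 9-month male control array 14.78. Array b of the 12-month male control read 13.85 for Rps24 and 13.58 for Rps28, within the range of those other spastic samples. The suffixes of these probe sets mark probes chosen under relaxed rules for Rps24 and common to a sequence family for Rps28. The other Rps24 probe set, under the filter, read 7.32 in the 6-month sample and 7.33 to 7.8 in the other spastic samples, against 7.5 to 8.14 in the controls, so there the 6-month sample was below every control. A second bright probe set of Rps28 read 13.77 in the 6-month sample, 13.07, 12.99, 13.08 and 13.55 in Spa1, Spa2, sev and 3+ month samples, and 12.9 to 13.24 in the controls, so there the other spastic samples did not lie below. A further Rps28 probe set, under the filter, averaged 7.98 in spastic and 7.06 in control samples, the opposite order to the tested one. The median SD was 0.22 for members and for all genes, and the steadiest members were Rps4x at 0.07, with Rpl7 and Rps3a1 at 0.08.

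**Figure D3:**
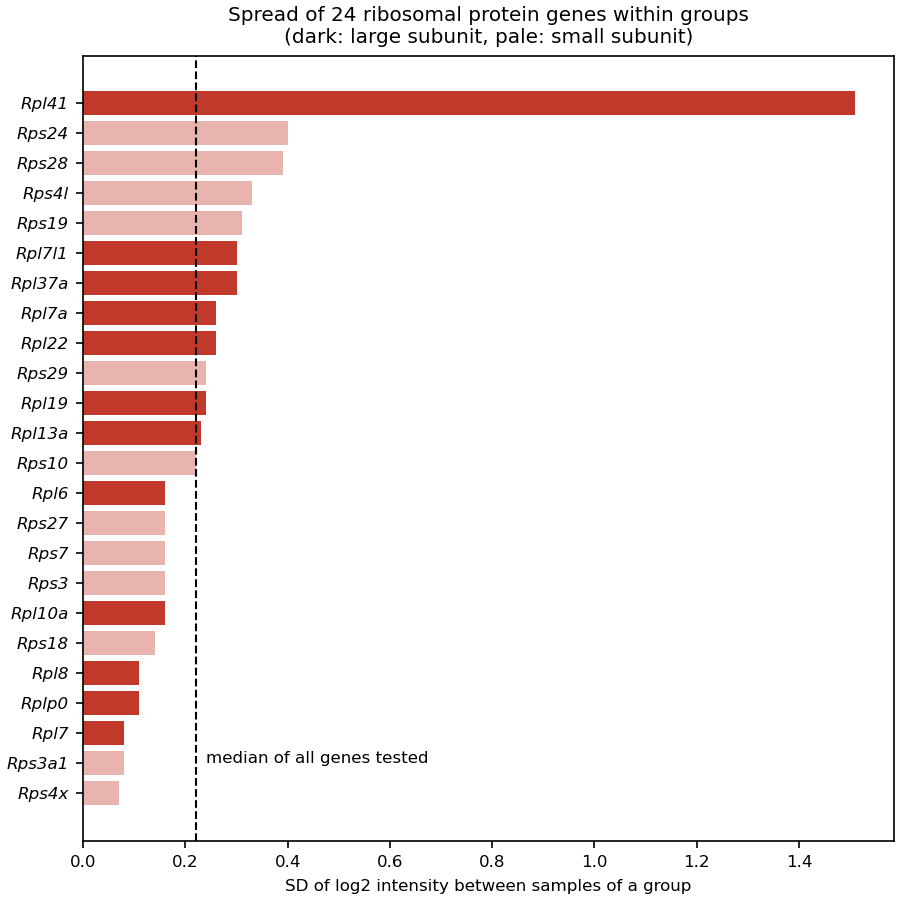
The SD of log2 intensity between samples of a group for each of the 24 genes, dark bars for the large and pale bars for the small subunit, with a dashed line at the median of all genes tested, 0.22. Rpl41 stands alone at 1.51.

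Leaving out the 6-month spastic sample changed the calls of these genes. It was singled out with these same values in view, so the changed calls are a description and not a test. Leaving out each other spastic or control sample in turn gave 0 to 2 members called, beside 11.2% to 19.3% of all genes. Without the 6-month sample, 6 of 24 members were called, 3 lower and 3 higher, beside 16.2% of all genes. Rpl41 then differed by -1.94 (SE 0.44, adjusted p = 0.016), Rps24 by -0.55 (adjusted p = 0.0365) and Rps28 by -0.44 (adjusted p = 0.0355), and Rps19, a small subunit protein whose human gene is mutated in Diamond-Blackfan anaemia, by 0.44 (adjusted p = 0.0464). Rps18 differed by 0.4 (adjusted p = 0.0302) and Rps4l by 0.68 (adjusted p = 0.0443). All of these are values of the tested probe sets, and the other probe sets of Rps24, Rps28 and Rps4l, given above, did not all share their direction. The 6-month sample was the highest of all 10 samples in 7 of 24 members (29.2%, against 8.79% of all genes), and the 3+ month spastic sample was the highest in 7 and the lowest in 5 (29.2% and 20.8%, against 15.1% and 17.8%). The members were brighter than all genes tested, with a median mean of 13.2 against 9.71, and the arrays of the 6-month sample reached the highest intensities. The part of brightness in these shares was not tested.

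**Figure D4:**
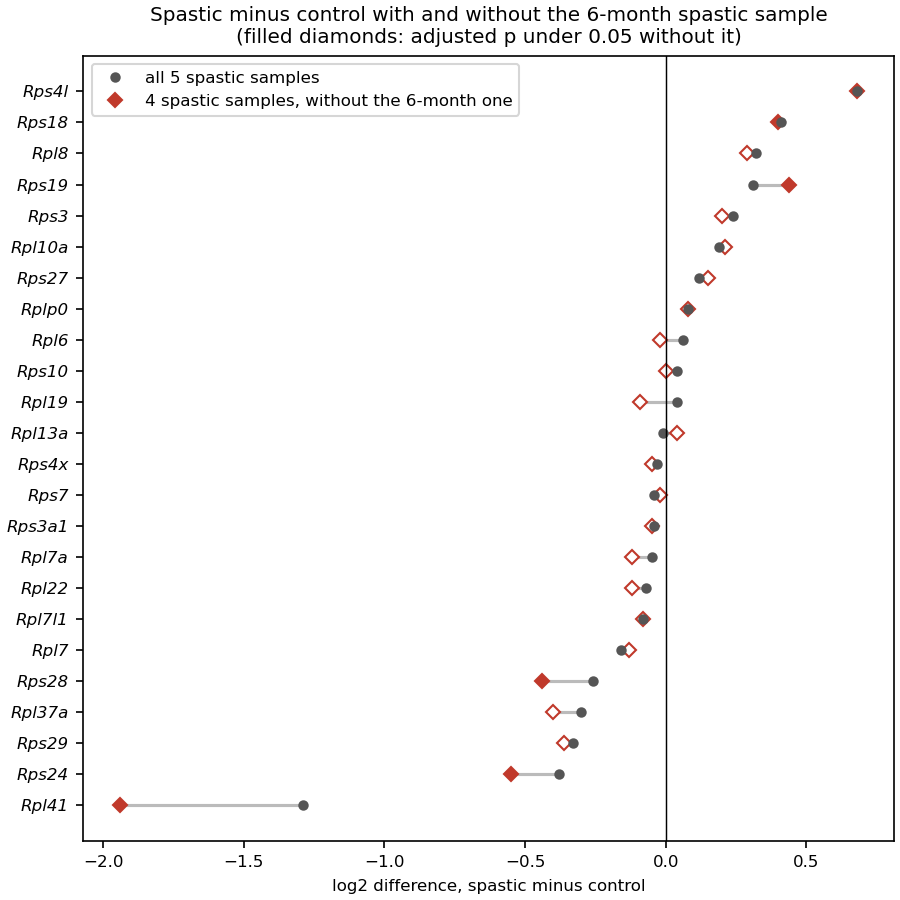
Difference of each gene, spastic minus control, from all 5 spastic samples (circles) and from the 4 without the 6-month sample (diamonds, filled where the adjusted p is under 0.05). Rpl41, Rps24 and Rps28 move further below 0 and Rps19 further above it.

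On the tested probe sets, arrays of one sample differed for the members by a median of 0.08 to 0.3 log2 units, with the widest pair in the 9-month female control, where Rpl41 differed by 1.03. Probe sets of one gene also disagreed. Rpl19, a large subunit protein, differed by 0.04 between spastic and control on the tested probe set and by 1.09 (SE 0.26, adjusted p = 0.0157) on a dimmer one, where spastic sample means lay at 8.18 to 9.27 and control sample means at 6.97 to 8.04. Its paired control arrays disagreed, with 8.76 and 7.31 in the 12-month female and 8.99 and 6.87 in the 12-month male. In the 9-month female they read 8.02 and 5.93, the floor. Single arrays overlapped, with a 6-month spastic array at 8.15, and B6C3Fe averaged 8.94. With every probe set tested on its own, 3 of 29 were called (10.3%), all higher, against 19.6% of all probe sets.

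Against the B6C3Fe sample, 0 of 24 members were called in spastic cord, where 2.05% of all genes were called, and 2 of 24 members had an unadjusted p under 0.05, beside 1304 of 6427 genes. B6C3Fe was 1 sample, assumed to vary like the others. That sample was a male of 1 month. The spastic samples were 2 to 6 months old and all carried the female pattern of sex-linked genes. Genotype, age and sex therefore cannot be told apart in this comparison. Rpl10a, whose tagged form is used to purify ribosomes from chosen cells, was at 12.14 to 12.49 in spastic samples and 11.83 in B6C3Fe, a difference of 0.56 (adjusted p = 0.136), and its second probe set differed by 0.94 (adjusted p = 0.0708). Rps19 was at 11.36 to 12.28 in spastic samples and 11.23 in B6C3Fe, a difference of 0.84 (adjusted p = 0.166). Rps10 differed by 0.46 (adjusted p = 0.302), Rps29 by -0.6 (0.275), Rps7 by -0.24 (0.521) and Rpl41 by -1.21 (0.614). The difference of Rpl41 turned to 0.38 (adjusted p = 0.939) without the 2 spastic samples titled male and was -0.27 (adjusted p = 0.929) without the 3+ month sample. Rps18 differed by 0.01 (95% interval -0.41 to 0.43), and the median over members was 0.04 against -0.02 for all genes.

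Between B6C3Fe and control cord 0 of 24 members were called, against 0.389% of all genes, and 0 had an unadjusted p under 0.05, beside 965 of 6427 genes. The 3 estimates above 0 with the smallest p were Rps18 at 0.41 (adjusted p = 0.348), Rps3 at 0.24 (0.585) and Rps7 at 0.2 (0.666). The 3 below 0 were Rpl10a at -0.38 (0.365), Rps10 at -0.42 (0.431) and Rps19 at -0.53 (0.439). The second Rpl10a probe set differed by -1.19 (adjusted p = 0.0712). The B6C3Fe sample was 1 month old and the controls 9 to 12 months, so age and any difference of stock cannot be told apart here. The spastic and B6C3Fe comparisons share samples, so their values stand side by side only. Among controls, 12 minus 9 months gave 0 members called, 1 with an unadjusted p under 0.05, Rpl7l1 at -0.65 (adjusted p = 0.906). Rps4l differed there by 0.33, Rps18 by 0.18, Rps7 by 0.17, Rpl13a by -0.26 and Rpl37a by -0.23. The female minus male comparison follows the titles, so the male side holds the 2 spastic samples with the female pattern, among them the 3+ month sample with Rpl41 at 10.07. In it, 0 members were called and 0 had an unadjusted p under 0.05. Rpl41 differed by 1.16 (adjusted p = 0.806), Rpl7a by 0.27, Rps28 by 0.28, Rps3 by -0.19, Rplp0 by -0.15 and Rpl10a by -0.16. Of all genes, 0% were called in each of these last 2 comparisons, and 346 and 389 had an unadjusted p under 0.05.

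**Figure D5:**
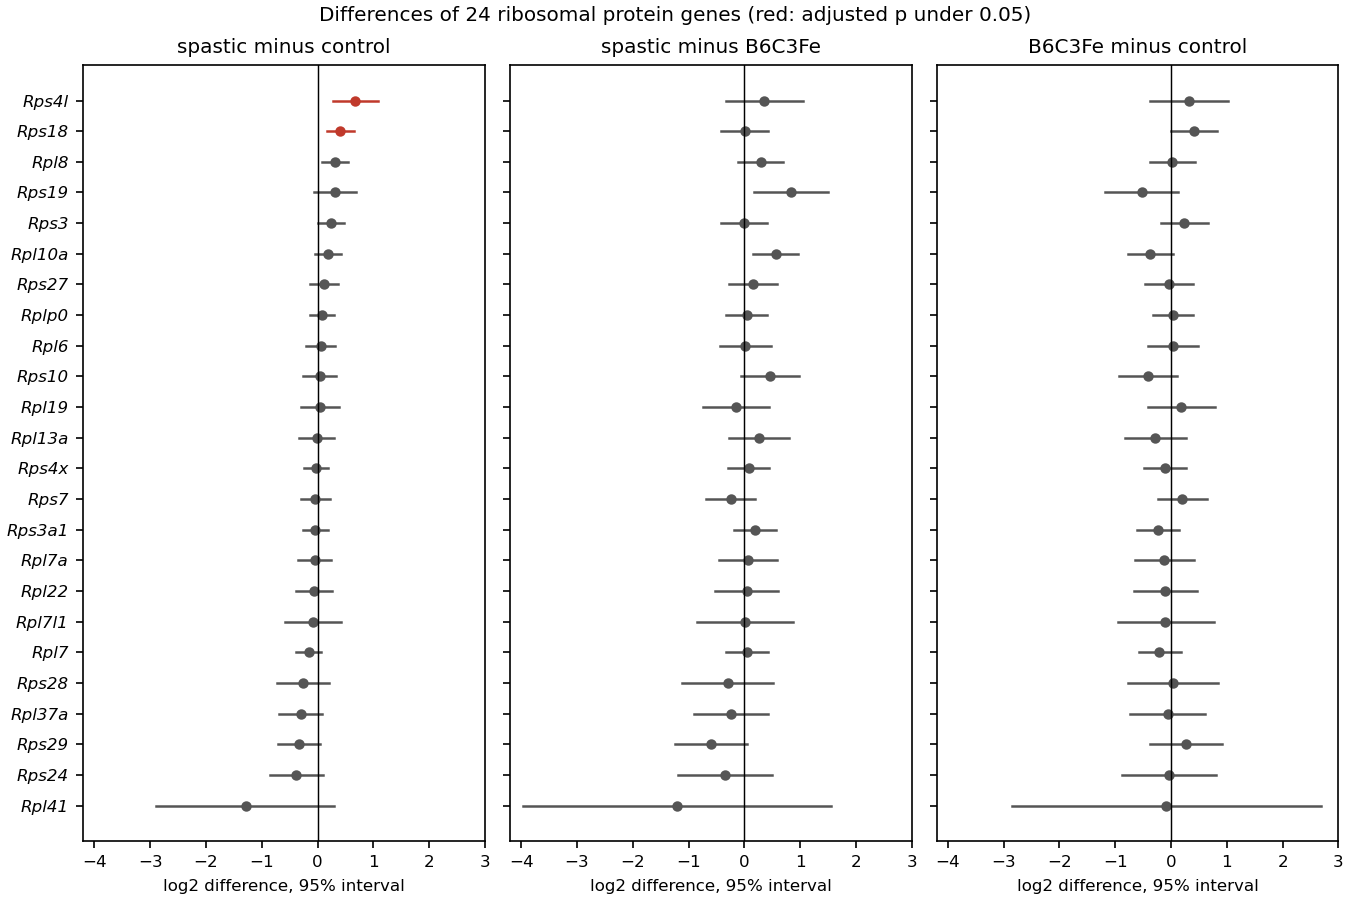
Log2 difference and 95% interval of each gene in 3 comparisons, with genes in the order of spastic minus control and red marks for an adjusted p under 0.05. Rps18 and Rps4l are the only red marks, and the interval of Rpl41 is the widest in each panel.

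Other genes of translation, on lists chosen with earlier results of these data known, were counted in spastic minus control. Of 30 initiation factor genes 4 rose and 5 fell (30%). Among those that fell were Pabpc1, the poly(A)-binding protein, at -0.73 (adjusted p = 0.0163), Eif1ax at -0.78, Eif3e at -0.75 and Eif2s2 at -0.74. Eif2s3x, at 0.54, and Eif6, which keeps the subunits apart, at 0.51, were among those that rose. All spastic samples carried the female pattern of sex-linked genes and controls were of both titled sexes. The part of sex in the value of Eif2s3x was not tested. Of 6 elongation genes 0 were called; Eef1a1, which delivers transfer RNA, differed by -0.62 (SE 0.37, adjusted p = 0.264) and Eef2, which moves the ribosome along, by 0.29 (adjusted p = 0.187). Of 43 ribosome biogenesis genes 4 rose (9.3%), among them the nucleolar Nop56 at 0.57 and Gar1 at 0.62. Of 12 genes of growth signalling 5 rose (41.7%), among them Ddit4, an inhibitor of the mTOR kinase, at 0.93 and Tsc2, another inhibitor, at 0.35, with Larp1, which binds the C- and T-rich starts of ribosomal protein transcripts, at 0.31. Of 57 genes for the mitochondrial ribosome 4 rose and 3 fell (12.3%), with Mrpl2 at 0.6 and Mrpl50 at -0.97. The background is 19.8% of all genes, and these counts are a description.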

How the data were processed

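The measurement was RNA of mouse spinal cord on 16 arrays of 12488 probe sets, of which 66 are control probe sets. The authors' deposited values are intensity values on a linear scale, 1 per probe set and array, and the sources used here do not name the software. From the values, the 2% trimmed mean was 800.4 to 800.5 on every array, so they were used as already scaled, and array medians were 289 to 383.6. Precision is limited by how many arrays there are.

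Groups, titled sex and ages came from the titles. Arrays a and b of one title were averaged, in 6 samples, which left 10 samples. Probe sets were named from GEO's platform annotation, 10833 with 1 symbol and 396 with several. Values under the 20th percentile were raised to it, and probe sets with a mean under the 40th percentile were not tested. Differences were fitted with limma 3.58.1 in R 4.3.3 (lmFit, eBayes with a trend) on all 10 samples with group and titled sex, two-sided, with Benjamini-Hochberg adjustment and a threshold of 0.05; the fit was tested on simulated data.

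Members, lists, named genes and alternatives were chosen with earlier results of these data known. Named genes were all members called, or, where 0 were called, the 3 with the smallest p either way, a standing set of members, the 3 brightest and 3 dimmest, genes whose probe sets differed by over 1, and up to 4 called genes per list. The alternatives concerned the floor, the filter, scaling, the replicate unit, covariates, the samples used and leaving out each sample in turn.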

Additional observations from a re-analysis of the deposited data

Results flagged for a closer look

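Of 48 groups of values, 5 held a sample far from the other samples of its group, and chance flags about 1 in 20 groups. Rpl19, Rpl6 and Rps28 each stood apart in the 6-month spastic sample, at 13.99 (other spastic samples 13.28 to 13.44), 13.37 (12.93 to 13.04) and 14.6 (13.48 to 13.62). Rpl22 stood apart in the Spa1 spastic sample at 9.55, with the other spastic samples at 10.24 to 10.33. Rps27 stood apart in the 12-month female control at 10.9, with the other controls at 10.53 to 10.59.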

How the results depend on the processing

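The number of members called in spastic minus control, 2 in the reported fit, beside 19.8% of all genes, was 1 with no filter (11% of all genes), 1 with only the arrays of letter a (11.8%), 1 with B6C3Fe among the controls (16.4%) and 0 when log2 of age was added to that (10.9%). It was 0 with the Pcx ratio as a covariate (0.14%), 0 when the 2 spastic samples titled male were left out (6.16%), 0 among samples titled female alone (2.57%), and 4 with every array as its own replicate (29.5%). Fewer genes were called over the whole array, too, in each setting that gave 0. Leaving out 1 sample gave 0 to 6, beside 11.2% to 19.3% of all genes. The lowest count came without the 12-month female control, the 9-month male control, Spa1 or the 3+ month spastic sample, and the count was 1 without the 9-month female control. With the array letter as a replicate block it was 4 (28.3%); the letter names arrays and does not pair groups, and the difference of a and b correlated between samples by -0.0376 to 0.163, over 0.1 for 1 of 15 pairs. Against B6C3Fe, the count of 0 (2.05% of all genes) was 1 with every array as its own replicate (9.74%), 1 with the sample as a random block (5.03%) and 1 with the replicate block (8.01%). Setting the median of every array equal shifted the median of all genes by 0.17 in spastic minus control and by 0.18 in spastic minus B6C3Fe, and the members' medians became 0.15 and 0.22, within 0 and 0.06 of all genes. The other comparisons had 0 members called under every alternative run. Rps18 was called in 18 of 29 alternatives (0.23 to 0.59, adjusted p 0.00202 to 0.35) and Rps4l in 20 of 29 (0.26 to 0.86, adjusted p 0.00312 to 0.605), with the same sign in all; the cause of the lost calls was not tested. Of 1890 values of single members over the alternatives, 135 had the opposite sign to the reported value and were not called in either, among them Rpl41 against B6C3Fe without the 2 spastic samples titled male (0.38), B6C3Fe minus control for Rpl41 without the 9-month male control (0.6) and Rps4l against B6C3Fe with the Pcx ratio (-0.08). Dim probe sets limit 10 genes, for which no test was made, and 12 minus 9 months with B6C3Fe among the controls was not run.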

Other observations

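Ribosomal symbols also occur on 39 probe sets that carry several symbols, 30 of those symbols nowhere else, and none was named. Of these, 35 passed the filter, and in spastic minus control 1 was higher and 1 lower (5.71%), with a median difference of -0.05 and a range of -0.74 to 0.37.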
